A study of Homo sapiens with 8 samples.

Results

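Actin, myosin and contractile genes were followed in HS578T, an established human breast carcinoma cell line that the labels call epithelial. The set holds 41 genes, listed by name: actins, actin crosslinkers, calponins, tropomyosins, myosin subunits, focal adhesion and LIM domain proteins, actin turnover factors, 2 transcription factors and vimentin. All 41 were found among the 60708 genes of the count table, and all 41 were among the 16008 genes with enough counts to be tested. Messenger RNA was sequenced in 4 groups of 2 libraries. Every group was transfected with 25 µg of plasmid, either encoding green fluorescent protein (Mock) or exogenous heat shock factor 2 (HSF2oe), and after another 24 h received assay medium with 2% serum for 24 h. The control groups received that medium alone and the TGF-β1 groups received it with 10 ng/ml of the cytokine. The groups are therefore Mock control, Mock TGF-β1, HSF2oe control and HSF2oe TGF-β1, and the series' design describes each pair of libraries as biological replicates. The share of cells that took up plasmid was not measured here, and counts of HSF2 hold plasmid and endogenous transcripts together. Groups were read from the titles, since the treatment field of the labels contradicts both them and the described design.

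Contractile force comes from filaments of actin pulled by bipolar filaments of myosin II, whose light chains are phosphorylated by kinases such as MYLK. Tropomyosins, caldesmon and calponins lie along the filament and set which proteins bind it, α-actinins and filamins crosslink it, and talin, vinculin, zyxin and paxillin couple its ends to integrins at focal adhesions. Many of these genes are targets of serum response factor (SRF), which binds the CArG box, an A and T stretch between paired C and paired G. Its coactivator MRTFA is held in the cytoplasm by monomeric actin and enters the nucleus when actin polymerises. TGF-β signals through SMAD factors and is known to turn fibroblasts into contractile myofibroblasts that express α-smooth muscle actin, encoded by ACTA2. HSF2 is a transcription factor of the heat shock factor family.

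Promoter windows show which members carry the letters that SRF binds, and the stretches around these letters are given first because the members are known for this element. RefSeq windows (GRCh38.p14), reaching from 250 bases before to 50 after a gene's start, were matched by symbol for 38 of the 41 genes. A CArG box on either strand was present in 8 of the 38 windows (21.1%), against 359 of 27305 windows of all genes (1.31%). The 8 genes were ACTG1, ACTG2, CNN2, TPM4, FHL2, MYLK, SRF and FLNA, and ACTG2 and SRF held 2 boxes each. The stretches of 5 of them, from 40 bases before the first box to at most 20 after the last, lie at chr2:73892858-73892964 on the plus strand, chr19:1026479-1026548 on the plus strand, chr19:16067325-16067394 on the plus strand, chr17:81512864-81512933 on the minus strand and chr6:43171199-43171268 on the plus strand. In the annotation of the count table, those of CNN2 and SRF lie just upstream of the gene, those of TPM4 and ACTG1 in introns of longer transcripts, and that of ACTG2 in an intron whose last bases belong to alternative first exons. They read as follows, from 5′ to 3′ on the gene's strand, with the CArG boxes in capitals.
ACTG2: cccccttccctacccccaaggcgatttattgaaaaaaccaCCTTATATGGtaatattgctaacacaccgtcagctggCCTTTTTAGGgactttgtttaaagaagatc
CNN2: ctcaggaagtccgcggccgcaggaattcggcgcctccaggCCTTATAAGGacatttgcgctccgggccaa
TPM4: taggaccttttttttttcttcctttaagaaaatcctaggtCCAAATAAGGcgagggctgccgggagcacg
ACTG1: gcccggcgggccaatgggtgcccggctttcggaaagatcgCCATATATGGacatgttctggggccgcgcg
SRF: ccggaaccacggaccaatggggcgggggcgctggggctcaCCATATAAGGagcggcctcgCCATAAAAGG
Both boxes of SRF lie within the last 30 bases before its start, and those of ACTG2 begin 110 and 73 bases before it. Other letters searched on both strands were the heat shock elements GAANNTTC (2 of 38 windows, 5.26%, against 6.97% of all windows) and TTCNNGAA (2 of 38, 5.26%, against 7.86%), the TEAD element GGAATG (12 of 38, 31.6%, against 14.2%) and the SMAD element GTCTAGAC (0 of 38, against 0.216%). The motifs searched are all palindromes except the TEAD element, and each was counted once per window. These are matches of letters in a short window and were not tested; absence says only that the letters are not in that window.

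Facts of the whole series bear on the values as follows. Total gene counts ran from 17427645 to 34336107 per library. HSF2 stood between 5.40 and 8.36 CPM in the Mock libraries and between 489 and 937 CPM in the HSF2oe libraries, so the plasmid labels held in all 8. Values are CPM, counts scaled to a common library size, here by TMM, a method that equalises libraries on their bulk of genes, and its factors ran from 0.857 to 1.01 with TGF-β1 and from 1.03 to 1.11 without it. Of the epithelial markers, EPCAM, CDH1, KRT19 and KRT5 were at or near 0 (at most 1.17 CPM), while KRT8, KRT18 and KRT14 were present, and all 7 epithelial markers summed to 492 to 578 CPM in Mock control, 709 to 831 in Mock TGF-β1, 386 to 409 in HSF2oe control, with 546 to 548 in HSF2oe TGF-β1. The 6 fibroblast and mesenchymal markers COL1A1, COL1A2, PDGFRB, THY1, FN1 and CDH2 summed to 49803 to 58750.0 CPM in Mock control and to 98231 to 109004 in Mock TGF-β1, and to 41364 to 42958 and 65422 to 70722 in the HSF2oe groups. Of these 6, 5 rose with TGF-β1 in each transfection (7.32% of all tested genes in Mock and 4.45% in HSF2oe cells rose). In HSF2oe 4 were lower without and 5 with TGF-β1 (7.22% and 11.9% of all tested genes). All 6 log2 changes lay above 0 with TGF-β1 and below 0 with HSF2oe, the direction of most contractile genes described below. Of the 4 epithelial markers tested, 1 (KRT14) rose with TGF-β1 in each transfection, and 1 without and 3 with TGF-β1 were lower in HSF2oe, beside the same shares of all tested genes. The part of either marker list in the results below was not tested. Blood markers (PTPRC, HBB, LYZ, CD3E, with HBB and CD3E at 0 throughout) summed to at most 0.709 CPM, endothelial markers (PECAM1, CDH5, VWF) to at most 4.46 CPM, and the muscle markers MYH11, DES, ACTA1, ACTC1, MYH3 and MYH7 to at most 5.76 CPM.

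Per kilobase of exon, the cytoplasmic actin ACTB was the most abundant member in Mock control at 1749 CPM per kilobase, followed by the other cytoplasmic actin, ACTG1, at 919.5. The actin monomer binding protein PFN1 (829), the non-muscle myosin heavy chain MYH9 (804), vimentin (629) and the filamin FLNA (493) came next. The smooth muscle actins lay far lower on the same scale, ACTG2 at 102 and ACTA2 at 94.1. The lowest members were the actin nucleator LMOD1 (8.86), MYLK (11.5), PXN (12) and MRTFA (12.8). Neighbours in this order are set apart by exon lengths as the annotation draws them, so close ranks are not a measured order. Together the 41 genes took between 4.30% and 5.88% of all counts in a library, with 4.93% and 4.96% in Mock control, then 5.63% and 5.88% in Mock TGF-β1, 4.30% and 4.75% in HSF2oe control, with 5.05% and 5.83% in HSF2oe TGF-β1.

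**Figure D1:**
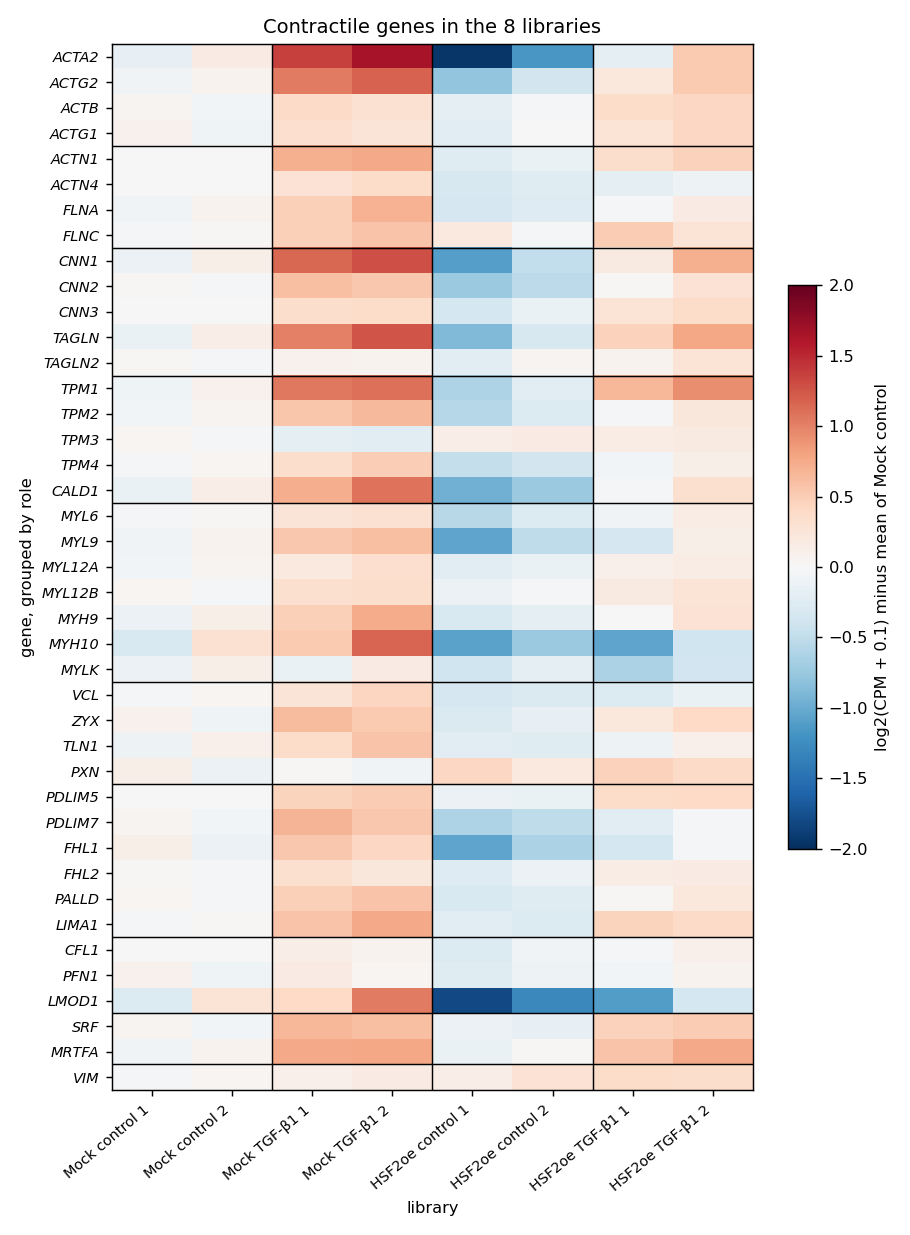
Level of each of the 41 contractile genes in each of the 8 libraries, as log2(CPM + 0.1) minus the mean of the 2 Mock control libraries (colour; red is higher, blue lower). Rows are genes grouped by role and columns are libraries by group. ACTA2, ACTG2, CNN1, TAGLN and TPM1 are the deepest red in Mock TGF-β1, and ACTA2 and LMOD1 the deepest blue in HSF2oe control.

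The comparison of TGF-β1 with control asks how the contractile genes answer the cytokine. In Mock cells 28 of the 41 genes rose and none fell (edgeR's quasi-likelihood test, Benjamini-Hochberg adjusted over all genes tested, threshold 0.05), against 7.32% of all tested genes that rose and 6.5% that fell (13.8% in either direction). The median log2 change of the 41 was 0.52, against 0.00 for all genes. In HSF2oe cells 24 rose and none fell, against 4.45% of all tested genes that rose and 3.82% that fell (8.26% in either direction), with a median of 0.45. A total of 20 members rose in both transfections, against 3.72% of all genes. The labels call the libraries separate replicates. The p-values weigh a difference of group means against the spread between libraries of the same group. That spread was estimated over all groups, with information shared between genes. In bulk RNA, more cells of one state and more RNA per cell cannot be told apart.

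Many of these calls were lost when 1 library was left out. Leaving out a compared library leaves 1 in its group and weakens the test, so a lost call need not mark an outlying library. FHL1 in Mock, at 0.48 with all libraries, was 0.58 without Mock control 1. In Mock cells 15 of the 28 calls held whichever library was left out: ACTA2, ACTG2, ACTN1, CNN1, CNN2, TAGLN, TPM1, CALD1, ZYX, PDLIM5, PDLIM7, PALLD, LIMA1, SRF and MRTFA. The other 13 (ACTN4, FLNA, FLNC, CNN3, TPM2, TPM4, MYL9, MYL12B, MYH9, MYH10, VCL, TLN1 and FHL1) did not pass without Mock control 1 (log2 changes of 0.29 to 0.58, adjusted p from 0.0646 to 0.268) or without Mock TGF-β1 2 (0.26 to 0.55, adjusted p from 0.0608 to 0.319). Without Mock control 2, 7 of these 13 calls were lost (adjusted p from 0.0626 to 0.246), and without Mock TGF-β1 1, 6 (adjusted p from 0.061 to 0.189). ACTN4 and VCL also lost their calls without either HSF2oe control library, and ACTN4 without HSF2oe TGF-β1 1. In HSF2oe cells 13 of the 24 calls held whichever library was left out: ACTA2, ACTG2, ACTN1, CNN1, CNN2, CNN3, TAGLN, TPM1, CALD1, PDLIM5, LIMA1, SRF and MRTFA. The other 11 did not pass without HSF2oe control 1 (adjusted p from 0.0775 to 0.273) or without HSF2oe TGF-β1 2 (adjusted p from 0.0559 to 0.253), which left 13 calls in each case. Without HSF2oe control 2, the calls of TPM4, PDLIM7, PALLD and FHL2 were lost (adjusted p from 0.0502 to 0.088). Scaling by library totals alone moved the median log2 change of all genes to -0.27 in Mock and -0.17 in HSF2oe cells. It left 11 of the 28 and 15 of the 24 calls, and the median of the 41 members was 0.26 and 0.29. Relative to all genes that median was 0.52 and 0.47 (0.52 and 0.46 with TMM). Rescaling shifts every gene of a comparison by nearly the same amount, so this likeness is built in and tests nothing. Under that scaling MYLK, VIM and PXN lay below 0 in both transfections and passed in neither, ACTN4 and VCL lay below 0 in HSF2oe cells, where they had not passed, and TPM3 passed as lower in Mock cells (-0.47, edgeR adjusted p = 0.00343).

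**Figure D2:**
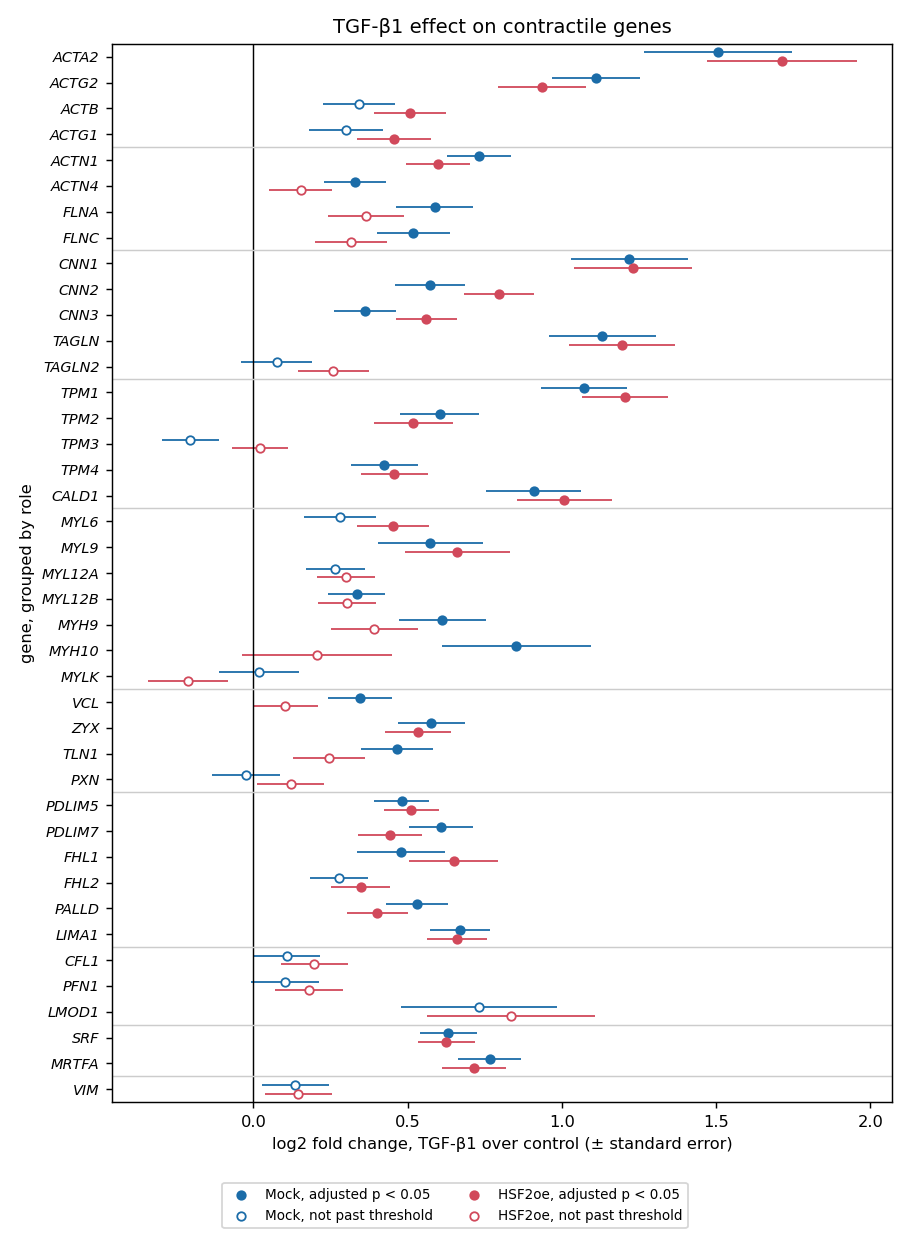
Log2 fold change of TGF-β1 over control for each of the 41 genes (x axis, ± standard error) in Mock (blue) and HSF2oe cells (red), with genes grouped by role on the y axis. Filled points passed an adjusted p of 0.05. ACTA2 lies furthest right, at 1.51 and 1.71, and 28 blue and 24 red points are filled.

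Among the actins, the smooth muscle forms rose most. ACTA2 (ENSG00000107796.13, chr10:88935074-88991339, minus strand), which encodes α-smooth muscle actin, stood at 248 and 312 CPM in Mock control, 720.2 and 871 in Mock TGF-β1, 72.5 and 124 in HSF2oe control, with 246 and 400.0 in HSF2oe TGF-β1. Both TGF-β1 libraries lay above both control libraries of their transfection, and the HSF2oe TGF-β1 libraries overlapped those of Mock control. Its log2 fold change was 1.51 ± 0.24 (± standard error throughout; 2.84-fold, edgeR adjusted p = 0.000858) in Mock and 1.71 ± 0.24 (3.28-fold, edgeR adjusted p = 0.000607) in HSF2oe cells. ACTG2 (ENSG00000163017.14, chr2:73892314-73919865, plus strand), the γ-smooth muscle actin with 2 CArG boxes in the window above, stood at 369.7 and 405 CPM in Mock control, 796 and 876 in Mock TGF-β1, 225 and 301 in HSF2oe control, with 448 and 558 in HSF2oe TGF-β1. No 2 of its groups overlapped, and it rose by 1.11 ± 0.14 and 0.94 ± 0.14 (edgeR adjusted p = 0.000182 and 0.00107). ACTB stood at 8003 and 7407 CPM in Mock control, 10021 and 9517 in Mock TGF-β1, 6689 and 7503 in HSF2oe control, with 9938 and 10251 in HSF2oe TGF-β1, and ACTG1 at 3934 and 3518 CPM in Mock control, 4714 and 4464 in Mock TGF-β1, 3203 and 3708 in HSF2oe control, with 4512 and 4959 in HSF2oe TGF-β1. These cytoplasmic actins build the bulk of the filament network; in both, TGF-β1 libraries lay above the controls of their transfection, with much smaller changes than those of the smooth muscle forms. ACTB changed by 0.34 ± 0.12 in Mock (edgeR adjusted p = 0.0725, not past the threshold) and rose by 0.51 ± 0.12 in HSF2oe cells (0.0155); ACTG1 changed by 0.30 ± 0.12 (0.126) and rose by 0.45 ± 0.12 (0.0322). Both HSF2oe calls were lost under limma on the deposited log2 CPM (adjusted p = 0.11 and 0.0924) and without HSF2oe control 1 or HSF2oe TGF-β1 2. Of the exonic bases of ACTA2, 30.8% are shared with the antisense gene ACTA2-AS1, and no strand option stands in the counting command, so reads there cannot be told apart. Of all 50-base words in the transcripts of ACTA2 (GENCODE release 29, matched on either strand), 26% occur in other genes. ACTA2-AS1, the antisense gene just named, holds 13.2% of the words. The share found in other genes is 4.84% for ACTB and 2.30% for ACTG1.

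The calponin family held 4 rises among 5 genes in each transfection. CNN1 (ENSG00000130176.8, chr19:11538767-11550323, plus strand), the smooth muscle calponin that binds actin and restrains myosin, stood at 63.7 and 74.7 CPM in Mock control, 152 and 169.6 in Mock TGF-β1, 32.1 and 49.2 in HSF2oe control, with 78.1 and 113 in HSF2oe TGF-β1. TGF-β1 libraries were high in each transfection, and both HSF2oe TGF-β1 libraries lay between the Mock groups. It rose by 1.22 ± 0.19 in Mock and 1.23 ± 0.19 in HSF2oe cells (edgeR adjusted p = 0.000721 and 0.00118). TAGLN (ENSG00000149591.17, chr11:117199370-117207464, plus strand), or transgelin, a calponin relative of smooth muscle, stood at 458 and 554 CPM in Mock control, 1018 and 1199 in Mock TGF-β1, 273 and 405 in HSF2oe control, with 694 and 856 in HSF2oe TGF-β1. No groups overlapped, and it rose by 1.13 ± 0.17 and 1.19 ± 0.17 (edgeR adjusted p = 0.000638 and 0.000699). The count table draws TAGLN with 47.8% of its exonic bases shared with a gene on the same strand (AP000892.6), so its counts are uncertain there. CNN2, the calponin of non-muscle cells with a CArG box in its window, stood at 362 and 349 CPM in Mock control, 540.3 and 518 in Mock TGF-β1, 212 and 247 in HSF2oe control, with 363 and 435 in HSF2oe TGF-β1. Its TGF-β1 libraries were higher in each transfection, by 0.57 ± 0.11 and 0.80 ± 0.11 (edgeR adjusted p = 0.0038 and 0.000622). CNN3 rose by 0.36 ± 0.10 and 0.56 ± 0.10. TAGLN2, the most abundant member of the family per length, changed by 0.08 ± 0.11 and 0.26 ± 0.11 and passed the test in neither (edgeR adjusted p = 0.755 and 0.223).

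Tropomyosins, the coiled coils that run along the filament, and caldesmon followed with 4 rises among 5 genes in each transfection. TPM1 (ENSG00000140416.23, chr15:63042632-63071915, plus strand) stood at 578 and 654 CPM in Mock control, 1272 and 1321 in Mock TGF-β1, 399 and 532 in HSF2oe control, with 978 and 1169 in HSF2oe TGF-β1. No groups overlapped, and it rose by 1.07 ± 0.14 (2.1-fold) and 1.2 ± 0.14 (2.3-fold; edgeR adjusted p = 0.00019 and 0.000121). CALD1 (ENSG00000122786.20, chr7:134744252-134970729, plus strand), which encodes caldesmon, an actin and myosin binding brake on contraction, stood at 921 and 1114 CPM in Mock control, 1679.7 and 2139 in Mock TGF-β1, 519 and 603 in HSF2oe control, with 987 and 1269 in HSF2oe TGF-β1. TGF-β1 libraries again lay above their controls, and HSF2oe TGF-β1 overlapped Mock control. It rose by 0.91 ± 0.15 and 1.01 ± 0.15 (edgeR adjusted p = 0.00134 and 0.00105). TPM2 rose by 0.60 ± 0.13 and 0.52 ± 0.13 and TPM4 by 0.42 ± 0.11 and 0.46 ± 0.11, calls lost when single libraries were left out, as given above. TPM3 was the exception among the tropomyosins, at 314 and 294 CPM in Mock control, 268 and 261 in Mock TGF-β1, 332 and 342 in HSF2oe control, with 339 and 345 in HSF2oe TGF-β1. Its change with TGF-β1 was -0.20 ± 0.09 in Mock and 0.02 ± 0.09 in HSF2oe cells (edgeR adjusted p = 0.182 and 0.936), so it passed in neither. Of the exonic bases of TPM1, 24.1% are shared with the antisense gene TPM1-AS.

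Of the 7 genes of myosin subunits and their kinase, 4 rose in Mock cells (MYL9, MYL12B, MYH9 and MYH10) and 2 in HSF2oe cells (MYL6 and MYL9), and none of these calls held when each library was left out. MYL9 (ENSG00000101335.10, chr20:36541497-36551447, plus strand), a regulatory light chain of smooth muscle type, stood at 1027 and 1125 CPM in Mock control, 1564 and 1638 in Mock TGF-β1, 517 and 759 in HSF2oe control, with 854 and 1164 in HSF2oe TGF-β1. TGF-β1 libraries were above their controls, and the HSF2oe TGF-β1 libraries spanned the Mock control ones. It rose by 0.57 ± 0.17 and 0.66 ± 0.17 (edgeR adjusted p = 0.0398 and 0.0291; the second was 0.42 without HSF2oe control 1, adjusted p = 0.258). The other light chains showed smaller values: MYL6 0.28 and 0.45, MYL12A 0.27 and 0.30, and MYL12B 0.33 and 0.30 on the log2 scale, in Mock and HSF2oe cells. MYH9, the main non-muscle myosin II heavy chain in these cells, changed by 0.61 ± 0.14 and 0.39 ± 0.14, passing in Mock only. MYH10 (ENSG00000133026.13, chr17:8474207-8630761, minus strand), the heavy chain of non-muscle myosin IIB, stood at 367 and 562 CPM in Mock control, 656 and 1021 in Mock TGF-β1, 216 and 273 in HSF2oe control, with 219 and 345 in HSF2oe TGF-β1. In Mock the TGF-β1 libraries were high but wide apart, and in HSF2oe cells they overlapped the controls. Its change was 0.85 ± 0.24 in Mock (edgeR adjusted p = 0.0321, or 0.151 with DESeq2) and 0.21 ± 0.24 in HSF2oe cells (0.716). Without Mock TGF-β1 2 the Mock value was 0.50 (adjusted p = 0.314), and without Mock control 1 it was 0.57 (0.265). MYLK, the myosin light chain kinase, stood at 234 and 275 CPM in Mock control, 232 and 284 in Mock TGF-β1, 192 and 223 in HSF2oe control, with 164 and 194 in HSF2oe TGF-β1. The Mock groups overlapped, and its changes of 0.02 ± 0.13 and -0.21 ± 0.13 passed in neither transfection (edgeR adjusted p = 0.955 and 0.413).

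All 4 actin crosslinkers rose in Mock cells and 1 in HSF2oe cells. ACTN1 (ENSG00000072110.16, chr14:68874128-68979440, minus strand), an α-actinin of stress fibres and adhesions, stood at 1131 and 1136 CPM in Mock control, 1850.3 and 1911 in Mock TGF-β1, 954 and 1033 in HSF2oe control, with 1441 and 1568 in HSF2oe TGF-β1. No groups overlapped, and it rose by 0.73 ± 0.10 and 0.60 ± 0.10 (edgeR adjusted p = 0.000339 and 0.00244). The second α-actinin, ACTN4, changed by 0.33 and 0.15, the filamin FLNA by 0.59 and 0.37 and the filamin FLNC by 0.52 and 0.32, the first value of each passing in Mock. Of the 4 focal adhesion genes, 3 rose in Mock and 1 in HSF2oe cells. ZYX, the zyxin gene, rose in both, by 0.58 ± 0.11 and 0.53 ± 0.11; its HSF2oe call was lost without HSF2oe control 1 (adjusted p = 0.0775) or HSF2oe TGF-β1 2 (0.0741). VCL (vinculin) changed by 0.35 and 0.10 and TLN1 (talin) by 0.47 and 0.24, passing in Mock. PXN, which encodes paxillin, changed by -0.02 and 0.12 and passed in neither. A call in Mock and none in HSF2oe cells does not show a difference between them, which is tested below.

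The PDZ-LIM, FHL and actin scaffold genes held 5 rises in Mock and 6 in HSF2oe cells among 6 genes. LIMA1, which encodes an actin bundling LIM protein, rose by 0.67 ± 0.10 and 0.66 ± 0.10, and PDLIM5 by 0.48 ± 0.09 and 0.51 ± 0.09, with calls that held whichever library was left out. PALLD (palladin) rose by 0.53 ± 0.10 and 0.40 ± 0.10, PDLIM7 by 0.61 ± 0.10 and 0.44 ± 0.10, and FHL1 by 0.48 ± 0.14 and 0.65 ± 0.14. FHL2 changed by 0.28 ± 0.10 and rose by 0.35 ± 0.09, a call lost without any of 7 libraries (adjusted p from 0.0515 to 0.273). The transcription factor SRF (ENSG00000112658.8, chr6:43171269-43181506, plus strand) stood at 125 and 115 CPM in Mock control, 190.3 and 181 in Mock TGF-β1, 111 and 107 in HSF2oe control, with 164 and 171 in HSF2oe TGF-β1. Its coactivator MRTFA (ENSG00000196588.20, chr22:40410281-40636719, minus strand) stood at 93.8 and 102 CPM in Mock control, 166 and 168 in Mock TGF-β1, 89.6 and 99.3 in HSF2oe control, with 145 and 165 in HSF2oe TGF-β1. In both genes the TGF-β1 libraries lay above all 4 control libraries. SRF rose by 0.63 ± 0.09 and 0.62 ± 0.09 (edgeR adjusted p = 0.000486 and 0.000847), and MRTFA by 0.77 ± 0.10 and 0.72 ± 0.10 (0.000252 and 0.000665).

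Actin turnover and nucleation genes and vimentin did not pass. CFL1, which encodes the filament severing protein cofilin, changed by 0.11 ± 0.11 and 0.20 ± 0.11, and PFN1 (profilin) by 0.10 ± 0.11 and 0.18 ± 0.11. LMOD1, a nucleator of smooth muscle actin filaments, changed by 0.73 ± 0.25 and 0.83 ± 0.27 (edgeR adjusted p = 0.0779 and 0.0847), with standard errors of 0.25 and 0.27, the largest among the 41 members. VIM, the mesenchymal intermediate filament gene, stood at 3181 and 3329 CPM in Mock control, 3489 and 3662 in Mock TGF-β1, 3582 and 3955 in HSF2oe control, with 4176 and 4162 in HSF2oe TGF-β1. TGF-β1 libraries lay slightly above their controls, but the changes of 0.14 ± 0.11 and 0.15 ± 0.11 did not pass (edgeR adjusted p = 0.491 and 0.521). Of the 41 genes, 9 passed in neither transfection: TAGLN2, TPM3, MYL12A, MYLK, PXN, CFL1, PFN1, LMOD1 and VIM. Exonic bases of CFL1 and MYL6 are shared with MUS81 and SMARCC2 to 19% and 18.3%. The exonic bases of VIM are shared with VIM-AS1 to 24.3% and those of PXN with PXN-AS1 to 26.7%.

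Whether HSF2oe changed the answer to TGF-β1 was tested as the difference of both TGF-β1 effects (HSF2oe minus Mock). No member passed, and no gene of the 16008 did (edgeR's quasi-likelihood test; 0.0% called). At an unadjusted p under 0.05 the counts were 0 of 41 members and 977 of all genes (6.10%), and DESeq2 called 23 genes, none of them a member. The differences were 0.03 in the median, and 18 of the 41 were below 0. MYH10 had the most negative one, -0.65 ± 0.34 (95% interval -1.38 to 0.09, edgeR adjusted p = 0.841). It was called with no filter on low counts (edgeR adjusted p = 0.0172) and also with a block for replicate number, as given below. For ACTA2 the difference was 0.21 ± 0.33 (95% interval -0.51 to 0.93), for CNN1 0.01 ± 0.27 (-0.56 to 0.59), for TAGLN 0.06 ± 0.24 (-0.46 to 0.58) and for SRF -0.01 ± 0.13 (-0.29 to 0.28). These intervals reached 0.34 to either side in the median over the 41 genes and at most 0.80. They hold for 1 gene at a time, and the test adjusted over all genes is stricter. Differences smaller than these, and also larger ones, could thus go unseen with 2 libraries a group. The 8 members called in Mock only (ACTN4, FLNA, FLNC, MYL12B, MYH9, MYH10, VCL and TLN1) and the 4 called in HSF2oe cells only (ACTB, ACTG1, MYL6 and FHL2) are not shown to differ by this test.

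The comparison of HSF2oe with Mock asks how the contractile genes stand when HSF2 is raised. Without TGF-β1, 13 of the 41 genes were lower in HSF2oe cells and none was higher (edgeR's quasi-likelihood test), against 7.22% of all tested genes that were lower and 4.88% that were higher (12.1% in either direction). The median log2 change was -0.25, and 37 of the 41 values were below 0. With TGF-β1, 21 were lower and 2 higher, against 11.9% and 9.6% of all tested genes (21.5% in either direction), with a median of -0.32. A total of 12 members were lower in both treatments, against 5.64% of all genes: ACTA2, ACTG2, CNN1, CNN2, TAGLN, TPM4, CALD1, MYL9, MYH10, PDLIM7, FHL1 and LMOD1. Calls without TGF-β1 were lost when single libraries were left out, which leaves 1 in a group. Without HSF2oe control 1 all but that of ACTA2 were lost, at log2 changes of 0.28 to 1.33 in size. Without Mock control 2 those of ACTG2, CNN1, TAGLN, TPM4, MYL6, MYL9 and MYH10 were lost, at 0.38 to 0.69 in size. TPM4 and MYL6 were also lost without Mock control 1, and TPM4 without HSF2oe control 2. With TGF-β1, 7 members passed without Mock TGF-β1 2 (adjusted p of the 16 lost from 0.0563 to 0.264) and 8 without HSF2oe TGF-β1 1 (15 lost, 0.058 to 0.296). CNN2 and TAGLN were also lost without Mock TGF-β1 1 (adjusted p = 0.099 and 0.055). With TGF-β1, the calls that held whichever library was left out were those of ACTA2, ACTG2, MYH10, VCL, PDLIM7 and LMOD1. Scaling by library totals alone moved the median of all genes to 0.09 and 0.19 and left 10 of the 13 and 12 of the 23 calls. The median of the 41 was then -0.16 and -0.13. Relative to all genes it was -0.24 and -0.32, values that rescaling leaves nearly unchanged by construction.

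**Figure D3:**
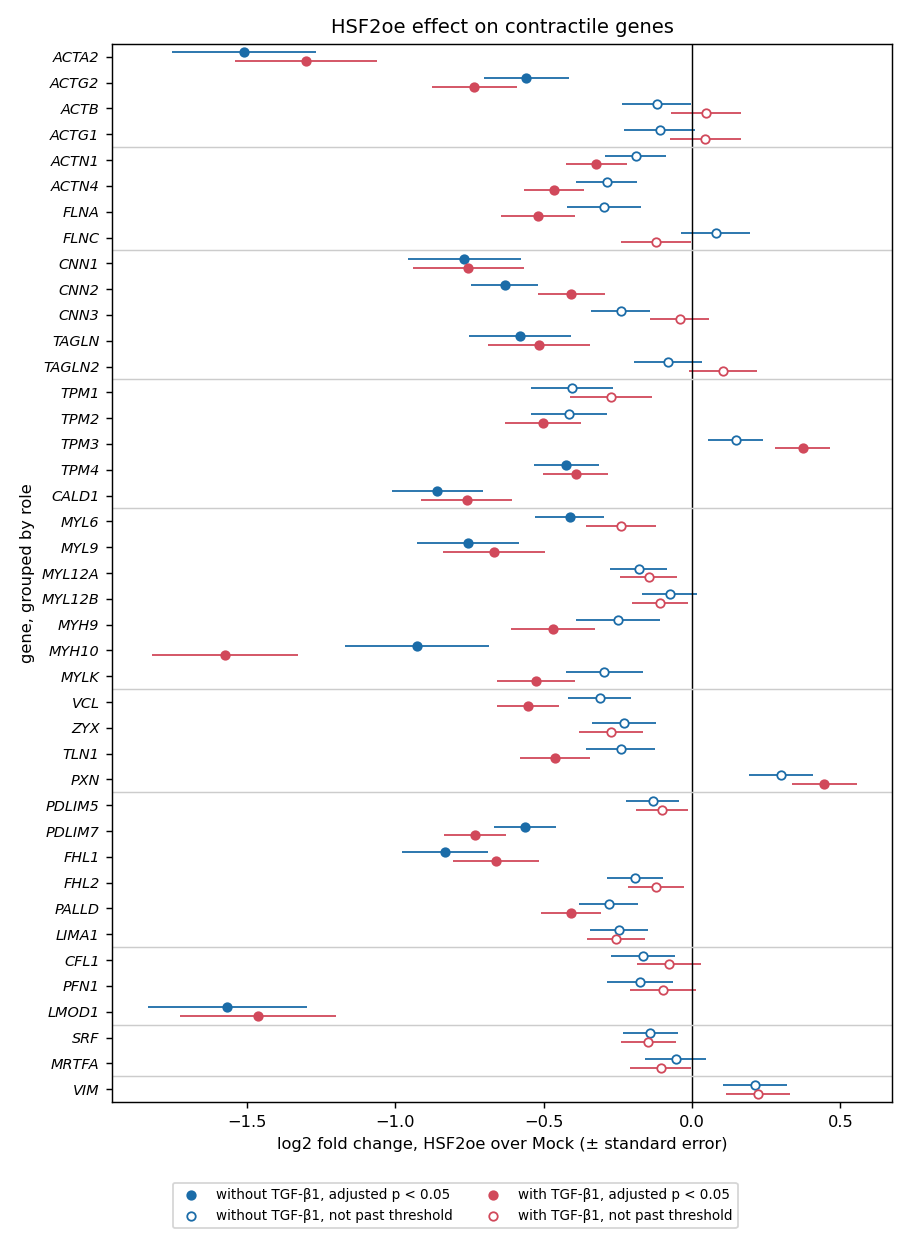
Log2 fold change of HSF2oe over Mock for each of the 41 genes (x axis, ± standard error) without TGF-β1 (blue) and with it (red), with genes grouped by role on the y axis. Filled points passed an adjusted p of 0.05. ACTA2, LMOD1 and MYH10 lie furthest left, and TPM3 and PXN hold the 2 filled points right of 0.

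ACTA2 was lower in every HSF2oe library than in either Mock library of the same treatment, with log2 changes of -1.51 ± 0.24 without TGF-β1 (2.85-fold lower, edgeR adjusted p = 0.00218) and -1.30 ± 0.24 with it (2.46-fold lower, 0.00221). ACTG2 showed -0.56 ± 0.14 and -0.73 ± 0.14 (edgeR adjusted p = 0.0232 and 0.00311); the first was -0.36 without HSF2oe control 1 (adjusted p = 0.249) and -0.49 without Mock control 2 (0.154). ACTB and ACTG1 did not pass: their HSF2oe libraries overlapped the Mock libraries in both treatments, with -0.12 ± 0.12 and 0.05 ± 0.12 for ACTB and -0.11 ± 0.12 and 0.05 ± 0.12 for ACTG1 (edgeR adjusted p = 0.557, 0.818, 0.607 and 0.833). In the calponin family, CNN1 (-0.77 ± 0.19 and -0.75 ± 0.19), CNN2 (-0.63 ± 0.11 and -0.41 ± 0.11) and TAGLN (-0.58 ± 0.17 and -0.52 ± 0.17) were lower in both treatments, and CNN3 and TAGLN2 passed in neither. CNN2 was -0.26 with TGF-β1 when HSF2oe TGF-β1 1 was left out (adjusted p = 0.231). CNN1 moved to -0.49 without HSF2oe control 1 (adjusted p = 0.213) and to -0.49 without HSF2oe TGF-β1 1 (0.132), and with DESeq2 its adjusted p without TGF-β1 was 0.0667. TAGLN moved to -0.32 without HSF2oe control 1 (adjusted p = 0.366), to -0.88 without HSF2oe control 2 and to -0.35 without HSF2oe TGF-β1 1 (0.296).

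CALD1 was lower in both treatments (log2 changes of -0.86 ± 0.15 and -0.76 ± 0.15, edgeR adjusted p = 0.00399 and 0.00384; 0.0611 without HSF2oe control 1 and 0.0563 without Mock TGF-β1 2). Its 2 HSF2oe control libraries, 561 ± 59.4 CPM (mean ± SD, n = 2), lay below every other library. The tropomyosins did not move as one. TPM4 was lower in both treatments (-0.42 and -0.39), TPM2 passed with TGF-β1 only (-0.42 and -0.50), and TPM1, whose HSF2oe libraries were below the Mock ones in each treatment, passed in neither (-0.40 ± 0.14 and -0.27 ± 0.14, edgeR adjusted p = 0.0757 and 0.183). TPM3 was higher with TGF-β1, by 0.37 ± 0.09 (edgeR adjusted p = 0.0119; 0.0985 without Mock TGF-β1 2), and changed by 0.15 ± 0.09 without it. All 4 HSF2oe libraries of TPM3 lay above all 4 Mock libraries.

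Myosin genes held 3 lower calls without and 4 with TGF-β1 among 7. MYH10 stood out by size: -0.93 ± 0.24 without TGF-β1 (edgeR adjusted p = 0.0261; 0.108 with DESeq2) and -1.57 ± 0.25 with it (2.97-fold lower, 0.000857). All 4 of its HSF2oe libraries lay below all 4 Mock libraries, and without Mock control 2 the first value was -0.59 (adjusted p = 0.247). MYL9 was lower in both treatments (-0.75 ± 0.17 and -0.67 ± 0.17, edgeR adjusted p = 0.0134 and 0.0144; -0.44 with TGF-β1 when HSF2oe TGF-β1 1 was left out, adjusted p = 0.145). MYLK was lower with TGF-β1 (-0.53 ± 0.13, edgeR adjusted p = 0.0125) and changed by -0.30 ± 0.13 without it, and MYH9 likewise (-0.47 ± 0.14 and -0.25 ± 0.14). MYL6 passed without TGF-β1 only (-0.41 and -0.24), and MYL12A and MYL12B passed in neither.

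LMOD1 (ENSG00000163431.13, chr1:201896456-201946588, minus strand) was the member with the most negative value without TGF-β1, at 28.4 and 41.9 CPM in Mock control, 45.6 and 71.0 in Mock TGF-β1, 9.76 and 14.0 in HSF2oe control, with 15.8 and 27.0 in HSF2oe TGF-β1. All HSF2oe libraries lay below all Mock libraries, with changes of -1.57 ± 0.27 (2.96-fold lower, edgeR adjusted p = 0.00305) and -1.46 ± 0.26 (2.76-fold lower, 0.00194). With HSF2oe control 1 left out, the first value was -1.33 and did not pass. The other turnover genes, CFL1 and PFN1, passed in neither treatment. FHL1, which encodes a LIM-only protein of muscle, stood at 212 and 182 CPM in Mock control, 287 and 262 in Mock TGF-β1, 95 and 127 in HSF2oe control, with 154 and 194 in HSF2oe TGF-β1. HSF2oe control was lowest and HSF2oe TGF-β1 overlapped Mock control, with changes of -0.83 ± 0.14 and -0.66 ± 0.14 (edgeR adjusted p = 0.00337 and 0.00609; 0.0545 without HSF2oe control 1 and 0.0761 without HSF2oe TGF-β1 1). PDLIM7, a PDZ and LIM domain scaffold on actin, stood at 252 and 234 CPM in Mock control, 387 and 353 in Mock TGF-β1, 158 and 171 in HSF2oe control, with 209 and 237 in HSF2oe TGF-β1. It showed the same order of groups, with -0.56 ± 0.10 and -0.73 ± 0.10 (0.00464 and 0.00047, edgeR adjusted p). Its first value was -0.51 with HSF2oe control 1 left out and did not pass. PALLD passed with TGF-β1 only (-0.28 and -0.41), and FHL2, PDLIM5 and LIMA1 passed in neither.

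Crosslinkers and focal adhesion genes passed with TGF-β1 only. There ACTN1 changed by -0.32, ACTN4 by -0.46, FLNA by -0.52, VCL by -0.55 and TLN1 by -0.46, against -0.19, -0.29, -0.30, -0.31 and -0.24 without it. Of these 5 the VCL call held whichever library was left out, the calls of ACTN4, FLNA and TLN1 were lost without Mock TGF-β1 2 or HSF2oe TGF-β1 1 (adjusted p from 0.058 to 0.143), and ACTN1 was lost without any of the 8 libraries (adjusted p from 0.0507 to 0.254). PXN stood at 96.2 and 82.2 CPM in Mock control, 90.4 and 84.9 in Mock TGF-β1, 118 and 101 in HSF2oe control, with 122 and 116 in HSF2oe TGF-β1. Its HSF2oe libraries lay above the Mock libraries in each treatment, and it was higher with TGF-β1 by 0.45 ± 0.11 (edgeR adjusted p = 0.0121) and changed by 0.30 ± 0.11 without it. The PXN call was lost without Mock TGF-β1 2 (adjusted p = 0.101) or HSF2oe TGF-β1 1 (0.0682). FLNC and ZYX passed in neither treatment. SRF changed by -0.14 ± 0.09 and -0.15 ± 0.09 and MRTFA by -0.06 ± 0.10 and -0.11 ± 0.10, and neither passed (edgeR adjusted p from 0.287 to 0.774). VIM changed by 0.21 ± 0.11 and 0.22 ± 0.11 and did not pass (0.229 and 0.166, edgeR adjusted p). TAGLN2, MYL12A, CFL1, PFN1 and VIM were called in none of the 5 comparisons.

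**Figure D4:**
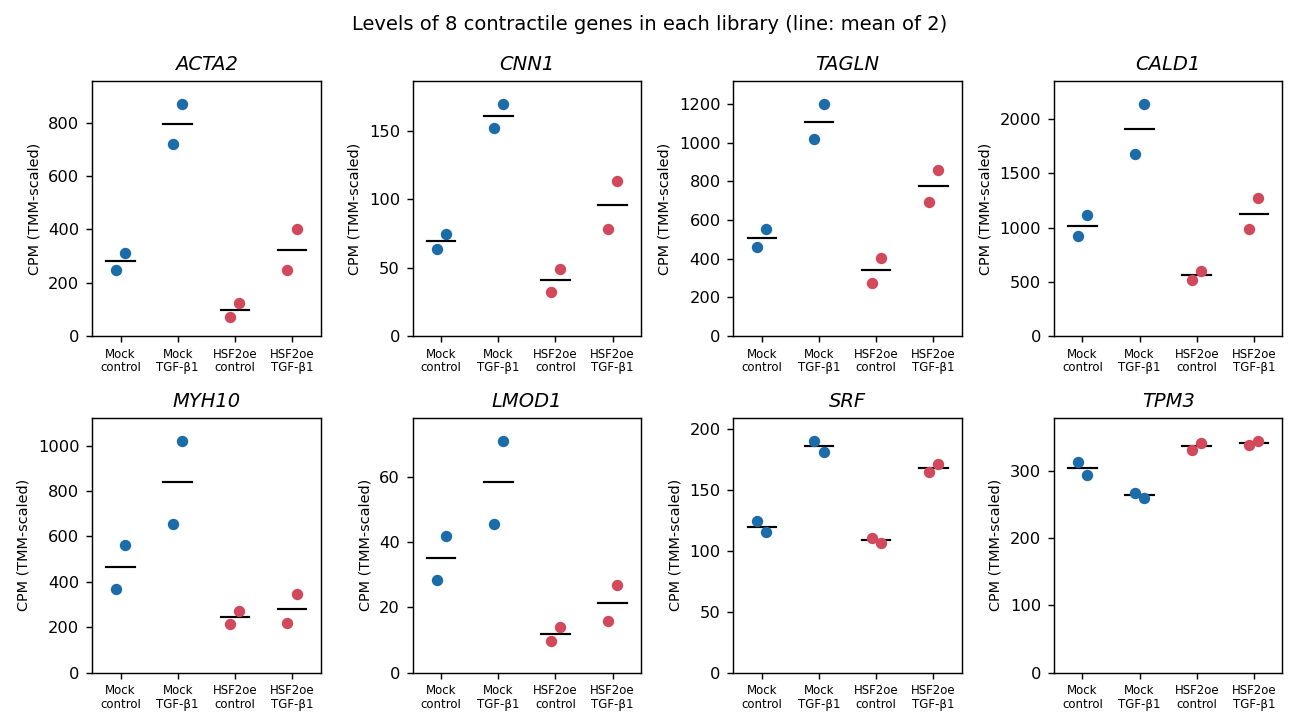
CPM (TMM-scaled, linear axes from 0) of 8 contractile genes in each library, by group on the x axis; points are libraries and lines the mean of 2, with Mock in blue and HSF2oe in red. MYH10 and LMOD1 are low in all 4 HSF2oe libraries, while the SRF points follow TGF-β1 in both transfections and those of TPM3 lie highest in HSF2oe.

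Set side by side, these comparisons share libraries, so each gene's own values are given without a relation between them. CNN1 rose with TGF-β1 by 1.22 and 1.23 and differed with HSF2oe by -0.77 and -0.75. TPM1 rose by 1.07 and 1.2, with -0.40 and -0.27 that did not pass. MRTFA rose by 0.77 and 0.72, with -0.06 and -0.11 that did not pass. LMOD1 was lower with HSF2oe (-1.57 and -1.46), and its TGF-β1 changes of 0.73 and 0.83 did not pass. Those changes were about as large as the ones of MRTFA, with standard errors of 0.25 and 0.27 against 0.10 and 0.10.

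The make-up of the families moved with these changes. Shares are of a family's counts per exonic length, and with 2 libraries against 2 an exact permutation test cannot go below p = 0.333, so none was run. Of the 4 actins, ACTA2 took 2.81% and 3.80% in Mock control, then 6.22% and 7.73% in Mock TGF-β1, 1.02% and 1.53% in HSF2oe control, with 2.32% and 3.51% in HSF2oe TGF-β1. The Mock TGF-β1 libraries were highest and the HSF2oe control libraries lowest, while HSF2oe TGF-β1 overlapped Mock control. ACTB remained the main actin, with 57.1% to 63.5% in all 8 libraries. Of the calponin family, TAGLN2 took 50.7% and 48.4% in Mock control, against 39.1% and 37.3% in Mock TGF-β1, and 57.0% and 56.2% and 46.6% and 45.9% in the HSF2oe groups. TAGLN took the opposite course, at 11.9% and 14.3%, 19.6% and 22.4%, 9.52% and 11.5% and 16.1% and 17% in the same order. Among tropomyosins TPM2 held 57.5% to 61.8% throughout. That rank rests on exonic lengths as the annotation draws them, 3183 bases for TPM2 and 12375 for TPM4. In CPM, TPM4 stood above TPM2 in every group, at 1638 against 978 in Mock control. TPM1 took 8.61% and 9.13% in Mock control, then 12.7% and 12.3% in Mock TGF-β1, 8.26% and 9.24% in HSF2oe control, with 13.7% and 13.9% in HSF2oe TGF-β1. Per exonic length MYL9 held the largest share of the 4 light chains, with 52.3% and 54.3%, 57.9% and 58.1%, 40.9% and 47.4% and 46.7% and 51.9%. The size of this share also rests on the drawn lengths, 2808 bases for MYL9 and 4424 for MYL6. Of the 2 non-muscle heavy chains, MYH10 took 5.20% and 6.72% in Mock control, then 6.13% and 7.78% in Mock TGF-β1, 3.56% and 4.12% in HSF2oe control, with 2.94% and 3.78% in HSF2oe TGF-β1. All 4 of its HSF2oe shares lay below all 4 Mock shares. A share within a family shows unequal change and not which gene changed.

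**Figure D5:**
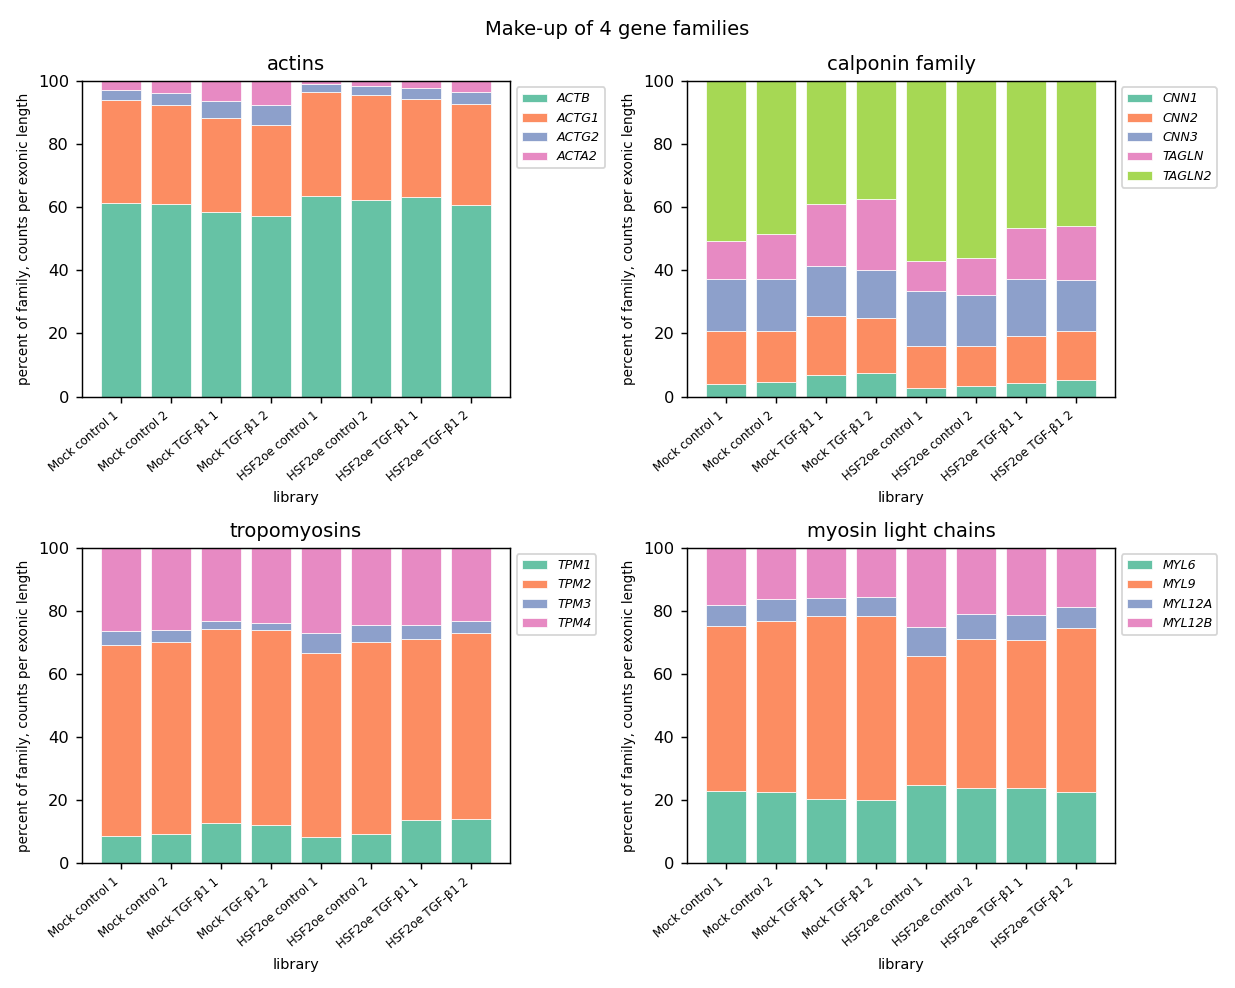
Make-up of the actins, calponin family, tropomyosins and myosin light chains in each library, as percent of the family's counts per exonic length (y axis, stacked bars from 0 to 100; x axis, the 8 libraries). The ACTA2 part is tallest in Mock TGF-β1 and thinnest in HSF2oe control, and the TAGLN2 part is shorter with TGF-β1 than without it in both transfections.

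Further genes of the same machinery were counted from lists of known function. Of 40 genes of actin filament assembly, 6 rose and 1 fell with TGF-β1 in Mock and 6 rose and 2 fell in HSF2oe cells (medians 0.10 and 0.14). That was 15% and 2.5% in Mock, against 7.32% and 6.5% of all tested genes. In HSF2oe cells it was 15% and 5%, against 4.45% and 3.82%. LCP1, the bundling protein L-plastin, rose by 0.78 ± 0.10 and 0.70 ± 0.10 and the elongation factor VASP by 0.61 ± 0.09 and 0.59 ± 0.09. These rises ranged from 2 to 6 in Mock and from 2 to 5 in HSF2oe cells when single libraries were left out. With HSF2oe 6 of the 40 (15%) were lower without and 6 with TGF-β1, against 7.22% and 11.9% of all tested genes, and none was higher. GSN, which encodes the severing protein gelsolin, was lower, with -0.65 ± 0.14 and -0.75 ± 0.14; the first was lost without Mock control 2 (-0.48, adjusted p = 0.12) or HSF2oe control 1 (-0.60, 0.102). When single libraries were left out, the lower calls ranged from 0 to 6 without TGF-β1 and from 2 to 6 with it.

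Of 28 further adhesion and LIM scaffold genes, 11 rose and 1 fell with TGF-β1 in Mock and 9 rose and 1 fell in HSF2oe cells (medians 0.33 and 0.23). Of all tested genes, 7.32% rose and 6.5% fell in Mock, and 4.45% rose and 3.82% fell in HSF2oe cells. PDLIM4 rose by 0.99 ± 0.09 and 0.90 ± 0.09 and the kindlin FERMT2 by 0.86 ± 0.09 and 0.89 ± 0.09. With HSF2oe 7 of the 28 were lower without and 10 with TGF-β1, and none was higher; these ranged from 0 to 6 and from 3 to 11 when single libraries were left out. With TGF-β1 the lower genes included SYNPO (-0.73 ± 0.12), which encodes the actin associated synaptopodin, and TNS1 (-0.49 ± 0.10), which encodes tensin. Of all tested genes, 7.22% were lower with HSF2oe without TGF-β1 and 11.9% with it.

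Of 26 other muscle contractile genes 10 had enough counts to be tested, and desmin (DES), MYH7 and ACTA1 were at or near 0. Of the 10, 4 rose with TGF-β1 in Mock and 2 in HSF2oe cells (7.32% and 4.45% of all tested genes rose), and single libraries left out gave 2 to 4 and 1 to 2. With HSF2oe 1 was higher in each treatment, and 3 were lower without and 4 with TGF-β1 (7.22% and 11.9% of all tested genes), with 1 to 3 and 2 to 4 when single libraries were left out. ACTC1, the cardiac actin, had 4 and 2 counts in Mock control, 36 and 65 in Mock TGF-β1, 2 and 8 in HSF2oe control, with 43 and 38 in HSF2oe TGF-β1. It rose with TGF-β1 in both (edgeR adjusted p = 0.00016 and 0.00326), from so few counts that the size depends on the prior count of the fit. MYLK2, a kinase of skeletal muscle light chains, rose by 1.52 ± 0.26 in Mock, from 1.27 and 1.33 CPM in Mock control. In HSF2oe cells it rose by 1.14 ± 0.24, from 1.93 and 1.86 CPM in HSF2oe control. The HSF2oe call of MYLK2 was lost without either HSF2oe control library or HSF2oe TGF-β1 2. With HSF2oe the smoothelin gene SMTN was higher by 0.93 ± 0.15 and 0.90 ± 0.15, with all 4 HSF2oe libraries above all 4 Mock libraries, while the actin binding SYNPO2 was lower (-0.63 ± 0.11 and -0.99 ± 0.11), as was SYNM, which encodes the intermediate filament protein synemin (-0.73 ± 0.15 and -1.20 ± 0.15). The first SYNM call was lost without Mock control 2 or either HSF2oe control library (adjusted p from 0.053 to 0.108). Among 12 unconventional myosins, 2 rose and 1 fell with TGF-β1 in Mock and 1 rose and 1 fell in HSF2oe cells, against 7.32% and 4.45% of all tested genes that rose. These rises ranged from 0 to 2 and from 0 to 1 when single libraries were left out. MYO18A was the one that fell, by 0.73 in Mock and 0.80 in HSF2oe cells on the log2 scale, and MYO10, a motor of filopodia, was higher with HSF2oe (0.72 ± 0.12 and 0.77 ± 0.12). Of the 12, 1 was higher with HSF2oe in each treatment, and 1 without and 3 with TGF-β1 were lower. Of all tested genes, 4.88% and 9.6% were higher and 7.22% and 11.9% lower. In the difference of TGF-β1 effects none of the genes of these 4 lists passed.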

How the data were processed

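Gene counts from 8 messenger RNA libraries were used as the authors deposited them. Per the file headers, they were made with featureCounts 2.0.1 in paired-end mode, without a strand option, on the GENCODE release 38 annotation. Per the submitters' processing notes, reads were aligned with STAR 2.7.9a to GRCh38. A second deposited table holds log2 CPM of 13169 genes, made with edgeR 3.34.1 per the same notes; it served as an alternative only.

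Low counts were filtered by group with edgeR 4.0.16 (R 4.3.3), which left 16008 of 60708 genes, and libraries were scaled by TMM. A model with 1 mean per group over all 8 libraries was tested by edgeR's quasi-likelihood F test. P-values were adjusted over all genes after Benjamini and Hochberg, with a threshold of 0.05. The common biological coefficient of variation was 9.91%. A standard error is the log2 change divided by the square root of F. The fitting was tested on simulated data. Alternatives were relative log expression factors, library totals alone, DESeq2 1.42.0, limma 3.58.1 on the deposited log2 CPM, no filter, a mean count of at least 50, a replicate block, the 4 compared libraries alone, and leaving out each library.

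Totals ran from 17427645 to 34336107 counts, at which 3 counts are 0.0851 to 0.195 CPM; this floor covers counting error only. Libraries of 1 group differed beyond counting noise (a chi-square of 12.5 to 26.8 per degree of freedom), so none looked like 1 library deposited more than once.

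The members and lists were chosen with earlier results of these data known. Members named with values in all libraries were 12 fixed genes and up to 4 per direction and comparison with the smallest p; from the other lists, up to 3 genes per comparison were named. Some further genes are not reported here.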

Additional observations from a re-analysis of the deposited data

How the results depend on the processing

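With library totals alone, 4493 genes and 12 members were called for TGF-β1 in Mock, 2045 genes and 15 members in HSF2oe cells, and 13 members for HSF2oe with TGF-β1. That scaling, which moves the median of all genes as given above, left 7 and 6 of the 41 members below 0 for TGF-β1 in Mock and HSF2oe cells (2 and 1 with TMM). Among the members named by the rule for each comparison it turned log2 changes that had not passed the test: MYLK (-0.24) and VIM (-0.13) for TGF-β1 in Mock, VIM (-0.015) for TGF-β1 in HSF2oe cells, MRTFA for HSF2oe without (0.0366) and with TGF-β1 (0.0883), SRF for HSF2oe with TGF-β1 (0.0443), and SRF (0.0941) and MRTFA (0.0517) in the difference of TGF-β1 effects. Without a low-count filter MYLK was -0.0033 for TGF-β1 in Mock and SRF 0.0143 in the difference, where 83 genes and 1 member (MYH10) were called; DESeq2 called 23 genes there. The causes of these changes were not tested.

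Over all tested genes, same-numbered libraries deviated together only weakly (correlations from 0.0498 to 0.163 over 6 pairs of groups). The numbers were therefore not taken to pair samples. Members such as ACTA2, ACTG2, CNN1, TAGLN, CALD1, MYL9, MYH10 and LMOD1 nevertheless stood higher in replicate 2 than in replicate 1 in every group. PXN stood lower in each, and others, such as ACTB and SRF, kept no single order. Without a block, such a shared shift counts as spread between libraries. With the replicate block, 3350 genes and 34 members were called for TGF-β1 in Mock, 2366 and 30 in HSF2oe cells, 3614 and 24 for HSF2oe without TGF-β1, 27 members for HSF2oe with it, and 78 and 1 (MYH10, -0.67, edgeR adjusted p = 0.0118) in the difference.

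Leaving out single libraries gave 1143 to 2266 genes and 15 to 29 members for TGF-β1 in Mock, 673 to 1334 and 13 to 24 in HSF2oe cells, 368 to 1993 and 1 to 14 for HSF2oe without TGF-β1, and 1509 to 3331 and 7 to 22 with it. Log2 changes that had not passed the test and changed sign ranged from -0.14 to 0.15 for MYLK with TGF-β1 in Mock. For HSF2oe over Mock they ranged from -0.13 to 0.0166 without and -0.20 to 0.0046 with TGF-β1 for MRTFA, and from -0.0172 to 0.13 with TGF-β1 for ACTG1. In the difference they ranged from -0.18 to 0.65 for ACTA2, -0.36 to 0.0559 for ACTG2, -0.18 to 0.38 for TAGLN, -0.27 to 0.36 for CNN1, -0.15 to 0.40 for MYL9, -0.0499 to 0.36 for TPM1, -0.0552 to 0.0639 for SRF, -0.14 to 0.0648 for MRTFA and -0.0481 to 0.0872 for VIM. Over the named members' log2 changes, 1007 values kept direction and side of the threshold, 47 lost the call, 14 gained one and 40 changed sign. With 2 libraries a group, precision rests on the spread between libraries; 3 counts, the limit that a count of 0 allows, lie far below every member's level.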
